A study of Saccharomyces cerevisiae with 12 samples.

Results

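The 10 genes described here encode the enzymes that carry carbon around the tricarboxylic acid cycle in the mitochondria of budding yeast, from citrate synthase CIT1 through aconitase ACO1, the isocitrate dehydrogenase subunits IDH1 and IDH2, the 2-oxoglutarate dehydrogenase subunits KGD1 and KGD2 and the succinyl-CoA ligase subunits LSC1 and LSC2 to fumarase FUM1 and malate dehydrogenase MDH1. They were chosen by name, and each was found on the array through the gene probe that carries its open reading frame. All 10 were present among the 6224 genes with a probe, each was well above background on all 12 arrays, and all 10 passed into the 5827 genes tested. Succinate dehydrogenase, the enzyme of the remaining step, was not in the chosen set and is described beside it from its own list of genes.

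The cycle oxidises the acetyl group of acetyl-CoA to carbon dioxide and passes the electrons to NADH and to the quinone of the respiratory chain. Its intermediates also feed the synthesis of amino acids such as glutamate and aspartate. In budding yeast many of its genes are repressed while glucose is plentiful and induced when cells respire, under the Hap2/3/4/5 activator complex, and the genes of its first steps also answer to the Rtg1 and Rtg3 retrograde factors when mitochondrial function is impaired.

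Transcripts were measured with single-colour (Cy3) Agilent arrays in strain L40 of Saccharomyces cerevisiae. The groups were cells with stable expression of scFv-58F, a single-chain antibody fragment that binds histone H3 acetylated at lysine K9 (called 58F), cells stably expressing scFv-112A, which binds acetylated HIV-1 integrase and served as the control intrabody (called 112A), and wild type cells with no intrabody, with 4 arrays each. Intrabodies are antibody fragments produced within a living cell. The intrabody strains were kept on medium lacking leucine and wild type cells on YPD, a rich medium, before a last overnight culture at 30 °C that was in YPD for all groups, so intrabody and earlier medium differ together between either intrabody group and wild type. The labels do not name the promoter or the site of the intrabody gene, nor whether the 4 replicates of a group were separate cultures; if they were not, the p-values measure technical spread. The 4 arrays of a group lay on 1 slide and were scanned together, so slide and group cannot be told apart.

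Levels are the log2 of the signal minus the 75th percentile of the same array, so that 0 is the signal at that percentile. They compare arrays for 1 gene and not genes with each other, because probes differ in brightness. The 75th percentile of the signal was 9362 on wild type replicate 1 and 4739 to 6047 on the other arrays. LEU2, the marker selected on medium lacking leucine, had a level of 6.15 ± 0.09 in 58F, 5.88 ± 0.16 in 112A and 1.53 ± 0.07 in the wild type (means of 4 arrays with SD), which separates the intrabody groups from wild type and does not check the 2 intrabodies against each other. The genes of mating type a (STE2, MFA1, MFA2 and BAR1) were above background on all 12 arrays. Of the alpha genes, MF(ALPHA)1 was above background on 0 arrays and MF(ALPHA)2 on 3, while STE3 and SAG1 were above it on all 12. The labels name no mating type.

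The 58F arrays were compared with those of 112A, the control intrabody against a viral protein that yeast lacks. These groups also differ in slide and scan, so the target of the intrabody cannot be told apart from slide. LEU2 was higher in 58F than in 112A as well (0.26, adjusted p = 0.0219, limma). Of the 10 cycle genes, 7 were lower in 58F, 0 were higher and 3 did not pass the test, at an adjusted p under 0.05 from limma over all genes. The fumarase gene FUM1 (1.59-fold), KGD1 (1.5-fold), KGD2 (1.48-fold) and the malate dehydrogenase gene MDH1 (1.42-fold) showed the larger falls, followed by ACO1, IDH1 and LSC2. The genes not called were CIT1, IDH2 and LSC1, all with changes below 0. In the same comparison 18.5% of all genes were called lower and 13.7% higher, 32.2% in all. The median change of the 10 cycle genes was -0.34 on the log2 scale, against -0.02 over all genes tested. Arrays of the groups did not overlap, with 58F below, for 5 of the 9 cycle genes measured on every array. Of all genes, 20.0% were separated with 58F below and 14.6% with 58F above, 34.6% in all. Quantile scaling turned the split of all genes called from 799 higher and 1078 lower to 1073 higher and 952 lower, and 6 cycle genes were called under it.

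Against wild type, transcripts of 8 of the 10 cycle genes were lower in 58F, that of LSC1 was higher, and the level of LSC2 was not called. FUM1 was 2.31-fold lower, ACO1 1.89-fold, KGD2 1.88-fold and MDH1 1.77-fold, and the other called falls were 1.43-fold to 1.53-fold. The value of IDH2 rests on 1 array of 58F. Of all genes, 33.0% were called lower and 28.7% higher, 61.7% in all. The median change was -0.59 for the cycle genes and -0.02 over all genes. The arrays did not overlap for 8 of the 9 genes with complete values, 7 with 58F lower and 1 with 58F higher, where 57.7% of all genes had arrays that did not overlap, 31.2% with 58F lower and 26.6% with 58F higher. For FUM1, 1.3% of the genes tested changed further downwards.

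The control intrabody was compared with wild type in the same way. In 112A, 7 cycle genes were lower than in wild type, LSC1 and LSC2 were higher, and KGD1 was not called. The falls were smaller in size than those of 58F against the same wild type arrays for each of these 7 genes, from 1.22-fold for IDH1 to 1.45-fold for FUM1. That difference is the change between 58F and 112A, which was called for 5 of the 7 and not for CIT1 and IDH2. Of all genes, 25.6% were called lower and 22.7% higher, 48.3% in all, and the median change was -0.31 for the cycle genes against -0.01 over all genes. The arrays did not overlap for 9 of the 10 cycle genes, 7 lower and 2 higher in 112A, against 39.9% of all genes, 22.2% lower and 17.7% higher. The 3 comparisons share arrays, so their values stand side by side and are not independent of each other.

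**Figure D1:**
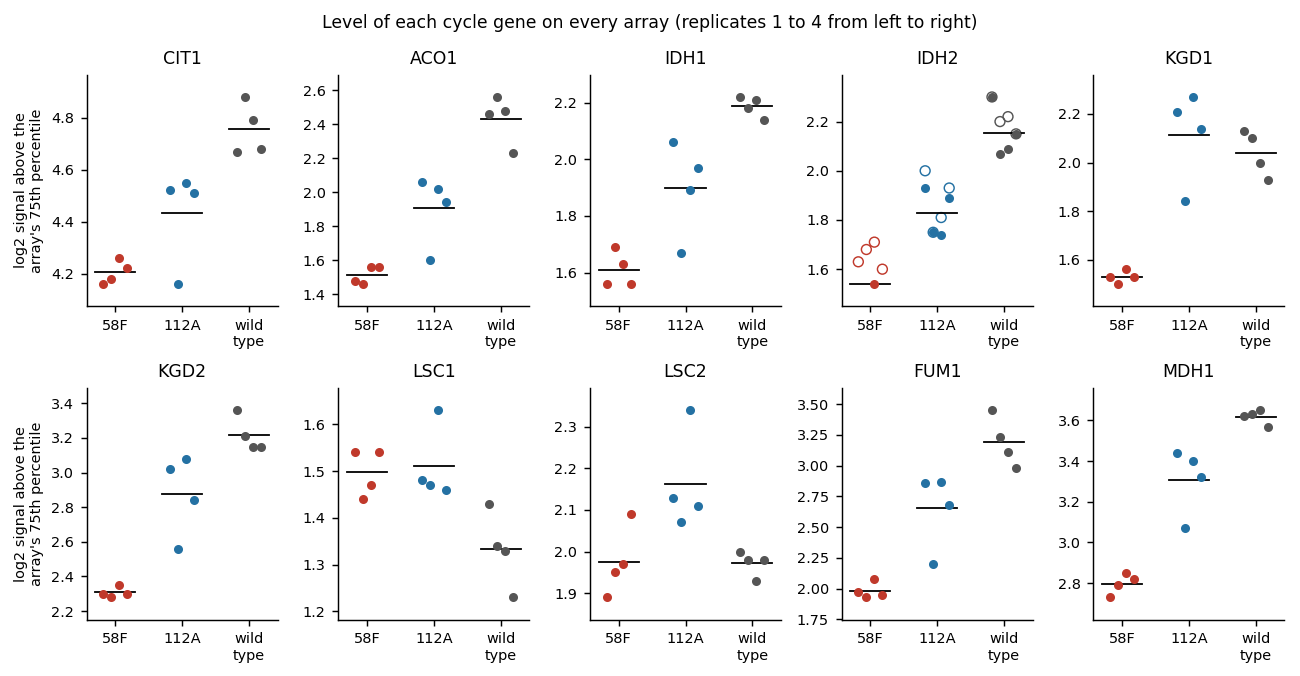
The log2 signal above the array's 75th percentile (vertical axis, its own range for each gene) is plotted for the 10 cycle genes on every array of 58F, 112A and wild type, with replicates 1 to 4 from left to right and a bar at the group mean. Open circles for IDH2 are the values with outlier-flagged spots kept. For 7 genes the groups step up from 58F through 112A to wild type; KGD1, LSC1 and LSC2 do not.

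CIT1 (YNR001C) makes citrate from oxaloacetate and acetyl-CoA in the mitochondrion. Its level was 4.16, 4.18, 4.26 and 4.22 on 58F replicates 1 to 4, 4.52, 4.16, 4.55 and 4.51 on the 112A arrays, and 4.67, 4.88, 4.79 and 4.68 on the wild type arrays. All 8 intrabody arrays lay below all wild type arrays, and 112A replicate 2 alone of its group lay among the 58F arrays. CIT1 was 1.46-fold lower in 58F relative to wild type (log2 change -0.55, SE 0.08, adjusted p = 0.000129) and 1.25-fold lower in 112A relative to wild type (-0.32, SE 0.08, adjusted p = 0.00766). Between 58F and 112A the change was -0.23 with a 95% interval from -0.41 to -0.05 (adjusted p = 0.0511), and without 112A replicate 2 it was -0.32 (adjusted p = 0.00191). That change was also called without wild type replicate 1 (adjusted p = 0.0476), and the fall in 112A against wild type was not called after quantile scaling (-0.21, adjusted p = 0.0608).

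ACO1 (YLR304C) turns citrate into isocitrate with an iron-sulfur cluster. It stood at 1.48, 1.46, 1.56 and 1.56 in 58F, at 2.06, 1.60, 2.02 and 1.94 in 112A and at 2.46, 2.56, 2.48 and 2.23 in wild type. The 3 groups did not overlap, with 112A replicate 2 lying just above the 58F arrays. The fall in 58F was 1.89-fold against wild type (-0.92, SE 0.10, adjusted p = 9.91e-06) and 1.31-fold against 112A (-0.39, SE 0.10, adjusted p = 0.011). ACO1 was also 1.44-fold lower in 112A relative to wild type (-0.53, SE 0.10, adjusted p = 0.00107). Its call held in all 3 comparisons under every alternative run.

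The NAD-dependent isocitrate dehydrogenase of yeast is built from Idh1, its regulatory subunit, and Idh2, its catalytic subunit. The level of IDH1 (YNL037C) was 1.56, 1.69, 1.63 and 1.56 in 58F, 2.06, 1.67, 1.89 and 1.97 in 112A and 2.22, 2.18, 2.21 and 2.14 in the wild type. Wild type was above both intrabody groups on every array, while 112A replicate 2 lay below the highest 58F array. IDH1 was 1.49-fold lower in 58F relative to wild type (-0.57, SE 0.07, adjusted p = 3.62e-05), 1.22-fold lower in 58F than in 112A (-0.29, SE 0.07, adjusted p = 0.0111) and 1.22-fold lower in 112A relative to wild type (-0.29, SE 0.07, adjusted p = 0.00687).

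For IDH2 (YOR136W) the image analysis flagged 13 of its 24 spots as outliers, of 14 flagged among the 240 spots of all cycle genes. Only 58F replicate 3 kept a value in that group, at 1.54, beside 1.93, 1.75, 1.74 and 1.89 in 112A and 2.30, 2.07, 2.09 and 2.15 in the wild type. With this 1 array standing for 58F in the fit, IDH2 was 1.53-fold lower in 58F relative to wild type (-0.61, SE 0.11, adjusted p = 0.00111) and was not called against 112A (-0.29, SE 0.11, adjusted p = 0.074). An alternative added after this gap was seen kept the flagged spots, which gave levels of 1.63, 1.68, 1.71 and 1.60 in 58F, 2.0, 1.75, 1.81 and 1.93 in 112A and 2.30, 2.20, 2.22 and 2.15 in the wild type. The 3 groups then did not overlap, and IDH2 was called lower in 58F than in 112A (-0.22, adjusted p = 0.0149) and than in wild type (-0.56). In the deposited log2 values the change between 58F and 112A was -0.23 (adjusted p = 0.00928, limma). With normexp background, which again left 1 array in 58F, it was -0.03. IDH2 was 1.25-fold lower in 112A relative to wild type (-0.33, SE 0.07, adjusted p = 0.00477).

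KGD1 and KGD2 encode the decarboxylating E1 and the succinyl-transferring E2 component of 2-oxoglutarate dehydrogenase. KGD1 (YIL125W) had levels of 1.53, 1.5, 1.56 and 1.53 in 58F, 2.21, 1.84, 2.27 and 2.14 in 112A and 2.13, 2.10, 2.0 and 1.93 in the wild type. The 58F arrays were below all others, and the 112A and wild type arrays overlapped. KGD1 was 1.5-fold lower in 58F than in 112A (-0.59, SE 0.08, adjusted p = 0.000465) and 1.43-fold lower than in wild type (-0.51, SE 0.08, adjusted p = 0.00021). The difference between 112A and wild type was 0.08 with an interval from -0.10 to 0.26 (adjusted p = 0.459), and without 112A replicate 2 it became a call of 0.17 in the same direction (adjusted p = 0.0319).

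KGD2 (YDR148C) stood at 2.30, 2.28, 2.35 and 2.30 in 58F, at 3.02, 2.56, 3.08 and 2.84 in 112A and at 3.36, 3.21, 3.15 and 3.15 in wild type. Unlike KGD1, it had all 112A arrays between the 58F and the wild type arrays. It was 1.48-fold lower in 58F than in 112A (-0.57, SE 0.10, adjusted p = 0.00134), 1.88-fold lower in 58F relative to wild type (-0.91, SE 0.10, adjusted p = 8.81e-06) and 1.27-fold lower in 112A relative to wild type (-0.35, SE 0.10, adjusted p = 0.0111). The last of these calls was lost after quantile scaling (-0.18, adjusted p = 0.129).

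The 2 subunits of succinyl-CoA ligase, which makes ATP while it releases succinate, were the exception among the cycle genes. LSC1 (YOR142W), the alpha subunit, had levels of 1.54, 1.44, 1.47 and 1.54 in 58F, 1.48, 1.47, 1.63 and 1.46 in 112A and 1.43, 1.34, 1.33 and 1.23 in the wild type. Both intrabody groups lay above wild type without overlap, and they overlapped each other. LSC1 was 1.12-fold higher in 58F relative to wild type (0.16, SE 0.05, adjusted p = 0.0207) and 1.13-fold higher in 112A relative to wild type (0.18, SE 0.05, adjusted p = 0.0188). Between 58F and 112A its change was -0.01 with an interval from -0.13 to 0.11 (adjusted p = 0.871). With normexp background neither rise against wild type was called (0.08, adjusted p = 0.211, and 0.11, adjusted p = 0.107). Without wild type replicate 4 both also missed the threshold (adjusted p = 0.0627 and 0.054), as did the rise in 58F without 58F replicate 1 or 4 (adjusted p = 0.0571 and 0.0535).

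LSC2 (YGR244C), the beta subunit, stood at 1.89, 1.95, 1.97 and 2.09 in 58F, at 2.13, 2.07, 2.34 and 2.11 in 112A and at 2.0, 1.98, 1.93 and 1.98 in wild type. The 112A arrays were above the wild type arrays, and 58F replicate 4 reached into the range of 112A. LSC2 was 1.14-fold higher in 112A relative to wild type (0.19, SE 0.06, adjusted p = 0.0273) and 1.14-fold lower in 58F than in 112A (-0.19, SE 0.06, adjusted p = 0.0404). Between 58F and wild type the change was 0.00 with an interval from -0.13 to 0.14 (adjusted p = 0.977). The call between 58F and 112A was lost in 13 of the 22 alternatives, among them quantile scaling (-0.08, adjusted p = 0.32) and the omission of 58F replicate 1 (-0.16, adjusted p = 0.114). The rise in 112A was not called without 112A replicate 3 (0.13, adjusted p = 0.0579), without wild type replicate 3 (0.17, adjusted p = 0.0711) or with normexp background (0.14, adjusted p = 0.0587).

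Succinate dehydrogenase links the cycle to the respiratory chain, and the genes of its 4 subunits were at their lowest in 58F and at their highest in wild type, with every difference called. Their changes between 58F and wild type were -0.95 for the flavoprotein SDH1, -0.93 for the iron-sulfur subunit SDH2, -0.94 for SDH3 and -0.51 for SDH4, which both anchor the enzyme in the membrane. Against 112A the fall in 58F was between 1.24-fold for SDH4 (adjusted p = 0.00294) and 1.43-fold for SDH3 (adjusted p = 0.00139). For all 4 genes the arrays of any pair of groups did not overlap. Of all genes, 34.6% were separated between 58F and 112A, 57.7% between 58F and wild type and 39.9% between 112A and wild type. The shares of all genes called in these comparisons were 32.2%, 61.7% and 48.3%. Without 112A replicate 2 the fall from wild type to 112A was called for 3 of the 4, beside 1309 of all 5827 genes called lower. The assembly factor genes SDH5 to SDH8 were not called between 58F and 112A. Between 58F and wild type SDH5, which attaches the flavin cofactor, was higher (0.22, adjusted p = 0.001), as was SDH7 (0.12, adjusted p = 0.0445), and SDH6 (-0.26, adjusted p = 0.0436) and SDH8 (-0.27, adjusted p = 0.00132) were lower.

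FUM1 (YPL262W), the only fumarase gene of yeast, whose product serves both the mitochondrion and the cytosol, showed the widest steps of the set. Its level was 1.97, 1.93, 2.08 and 1.95 in 58F, 2.86, 2.20, 2.87 and 2.68 in 112A and 3.45, 3.23, 3.11 and 2.98 in the wild type. The groups did not overlap, and 112A replicate 2 was nearer to the 58F arrays than to the other arrays of its own group. FUM1 was 2.31-fold lower in 58F relative to wild type (-1.21, SE 0.14, 95% interval -1.51 to -0.91, adjusted p = 1.66e-05), 1.59-fold lower in 58F than in 112A (-0.67, SE 0.14, adjusted p = 0.00388) and 1.45-fold lower in 112A relative to wild type (-0.54, SE 0.14, adjusted p = 0.00737). Without 112A replicate 2, the change between 58F and 112A was -0.82 and that between 112A and wild type -0.39, and both were called.

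MDH1 (YKL085W), the mitochondrial malate dehydrogenase that regenerates oxaloacetate, had levels of 2.73, 2.79, 2.85 and 2.82 in 58F, 3.44, 3.07, 3.40 and 3.32 in 112A and 3.62, 3.63, 3.65 and 3.57 in the wild type. The groups were fully separated, with the wild type arrays close together and 112A replicate 2 below its group. MDH1 was 1.77-fold lower in 58F relative to wild type (-0.82, SE 0.07, adjusted p = 2.18e-06), 1.42-fold lower in 58F than in 112A (-0.51, SE 0.07, adjusted p = 0.00047) and 1.24-fold lower in 112A relative to wild type (-0.31, SE 0.07, adjusted p = 0.004). All 3 calls held under every alternative run.

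**Figure D2:**
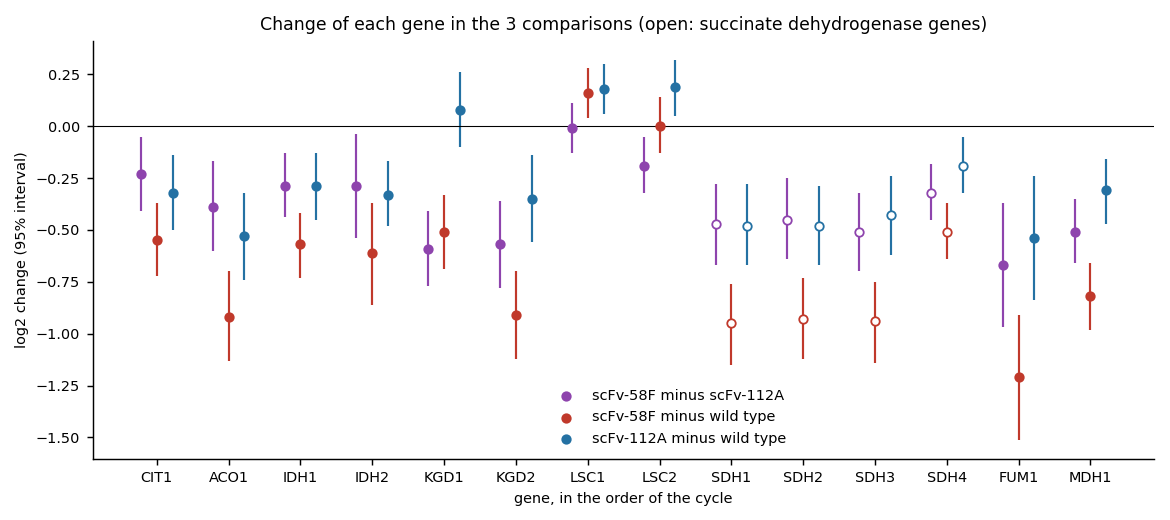
The log2 change with its 95% interval (vertical axis) is plotted for each gene in the order of the cycle, for 58F minus 112A, 58F minus wild type and 112A minus wild type. Filled points are the 10 chosen genes and open points the 4 succinate dehydrogenase genes. Changes of 58F against wild type run from -1.21 for FUM1 to 0.16 for LSC1, and the intervals of LSC1 and LSC2 lie near or across 0.

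The cycle genes were also followed array by array. Over the 9 genes with complete values, the mean level was 2.13 to 2.19 on the 58F arrays and 2.65 to 2.81 on the wild type arrays. In 112A it was 2.64, 2.67 and 2.55 on replicates 1, 3 and 4 and 2.29 on replicate 2. That array was the lowest of its group for 8 of the 9 cycle genes, against 30.4% of all genes, and its median deviation from the group median was -0.33. On the same array the respiratory chain list deviated by -0.27, the list of anaplerotic and glyoxylate genes by -0.43 and the glycolysis list by 0.22. Whether a difference in culture, RNA or hybridisation moved with this array was not tested. Among the wild type arrays replicate 4 was the lowest for 7 of the 9 cycle genes, against 26.4% of all genes, with a median deviation of -0.06.

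Leaving 112A replicate 2 out, 8 of the 10 cycle genes were called lower in 58F than in 112A with a median change of -0.43. In the same fit 1074 of all 5827 genes were lower and 808 higher. The arrays then did not overlap for 8 of 9 cycle genes, and the share of all genes was not computed for these arrays. This array was singled out by its low cycle genes. Leaving it out therefore widens their gap to 58F and narrows that to wild type by construction. In 112A against wild type, 7 genes were then lower and 3 higher, with a median change of -0.23, beside 1309 lower and 1149 higher among all genes. Leaving out wild type replicate 1, whose signal was the brightest, gave 9 cycle genes lower in 58F against 112A, 8 lower and 1 higher in 58F than in wild type, and 7 lower and 2 higher in 112A than in wild type. Of all genes, 1313 were then lower and 947 higher, 1875 lower and 1698 higher, and 1456 lower and 1404 higher in these comparisons. The median SD of the cycle genes was 0.051 in 58F, 0.183 in 112A and 0.091 in the wild type. Over all genes it was 0.070, 0.096 and 0.1, so the cycle genes spread more than the typical gene in 112A, and less in 58F and wild type.

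**Figure D3:**
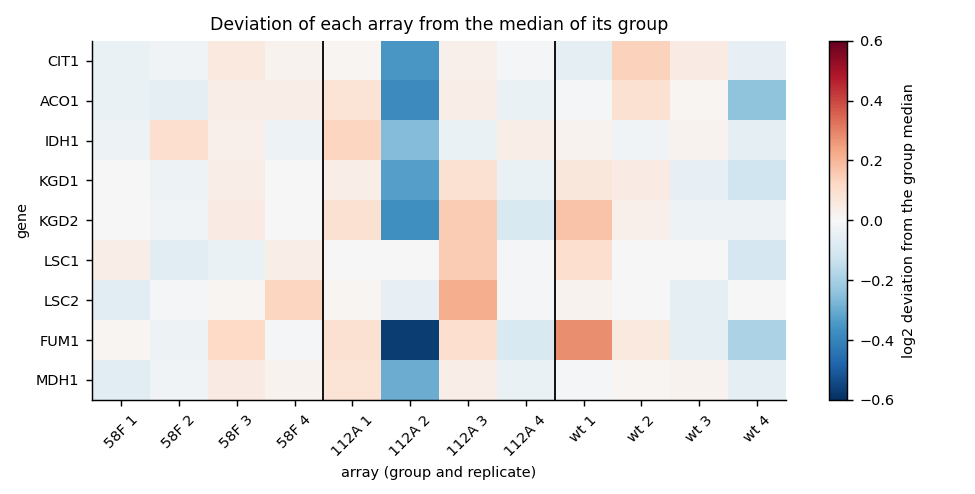
Each cell is the log2 deviation of an array (horizontal axis) from the median of its group for one of the 9 cycle genes with complete values (vertical axis), in blue where lower and red where higher. The column of 112A replicate 2 is blue for all genes but LSC1 and LSC2, which stay near 0, and has a median of -0.33.

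Genes that act as a pair were compared through the ratio of their signals within an array, which a shift common to all probes of an array leaves unchanged. A shift of this ratio shows unequal change, and its absolute value depends on the probes. There were 5 pairs and 13 tests between groups. Each was a 2-sided exact permutation test over 4 against 4 arrays with 70 regroupings, whose smallest possible p is 0.0286. Of the 13 tests, 8 reached that smallest value, which means that the arrays of the groups did not overlap. Their adjusted p is 0.0464 because 8 tests tied (exact permutation), and fewer such tests would have raised it. How often the ratio of any 2 genes separates the groups was not computed. Of single genes, 34.6% were separated between 58F and 112A, 57.7% between 58F and wild type and 39.9% between 112A and wild type. With 3 against 4 arrays the smallest p is also 0.0286. The 8 calls kept their direction when any array was left out. None of them passed the adjusted threshold when any 58F array, 112A replicate 3 or wild type replicate 2 or 4 was the array left out, with adjusted p of 0.0531 to 0.0929 (exact permutation).

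The log2 ratio of KGD1 to KGD2 was -0.78 ± 0.01 in 58F, -0.76 ± 0.06 in 112A and -1.18 ± 0.06 in the wild type (means of 4 arrays with SD). Both intrabody groups thus differed from wild type, by 0.40 and 0.42 (adjusted p = 0.0464 each, exact permutation), while the difference between them was -0.02 (adjusted p = 0.54, exact permutation). For LSC1 over LSC2 the ratio was -0.48 ± 0.09 in 58F, -0.65 ± 0.05 in 112A and -0.64 ± 0.08 in the wild type. Here 58F stood apart, 0.17 above 112A and 0.16 above wild type (adjusted p = 0.0464 each, exact permutation), and 112A differed from wild type by -0.01 (adjusted p = 0.857, exact permutation). With normexp background the difference of LSC1 over LSC2 between 58F and wild type was not called (0.10, adjusted p = 0.111, exact permutation). With outlier spots dropped, IDH1 and IDH2 could be tested between 112A and wild type only, where their ratio differed by 0.04 (adjusted p = 0.712, exact permutation). With these spots kept that difference was 0.08 (adjusted p = 0.0476, exact permutation), and 58F differed by -0.09 from 112A and by -0.01 from wild type (adjusted p = 0.0857 and 0.796, exact permutation).

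CIT2 encodes the peroxisomal citrate synthase and MDH2 the cytosolic malate dehydrogenase, and both were set against their mitochondrial counterparts. The ratio of CIT1 to CIT2 was -0.24 ± 0.03 in 58F, 0.26 ± 0.18 in 112A and 0.06 ± 0.01 in the wild type. It was lower in 58F by 0.50 on the log2 scale than in 112A (difference -0.50) and by 0.31 than in wild type (-0.31, adjusted p = 0.0464 each, exact permutation). CIT2 itself was higher in 58F than 112A (0.27, adjusted p = 0.0038) and lower in both intrabody groups than in wild type (-0.24, adjusted p = 0.00282, and -0.51, adjusted p = 3.64e-05). How far the probes of these related genes tell their transcripts apart was not tested.

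For MDH1 over MDH2 the ratio was 1.52 ± 0.07 in 58F, 2.03 ± 0.17 in 112A and 2.23 ± 0.26 in the wild type. It differed by -0.51 between 58F and 112A and by -0.71 between 58F and wild type (adjusted p = 0.0464 each, exact permutation), and by -0.20 between 112A and wild type (adjusted p = 0.409, exact permutation). MDH2 was not called in any comparison, with changes of 0.00, -0.11 and -0.11. Wild type replicate 1 had a ratio of 1.84 beside 2.34 to 2.40 on the other arrays of its group. After quantile scaling none of the ratios was called, with 6 of the 8 at an adjusted p of 0.0619 (exact permutation). The differences then were -0.50 and -0.24 for CIT1 over CIT2, -0.39 and -0.52 for MDH1 over MDH2 and 0.11 and 0.12 for LSC1 over LSC2 (58F against 112A and against wild type), and 0.23 and 0.29 for KGD1 over KGD2 (58F and 112A against wild type).

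**Figure D4:**
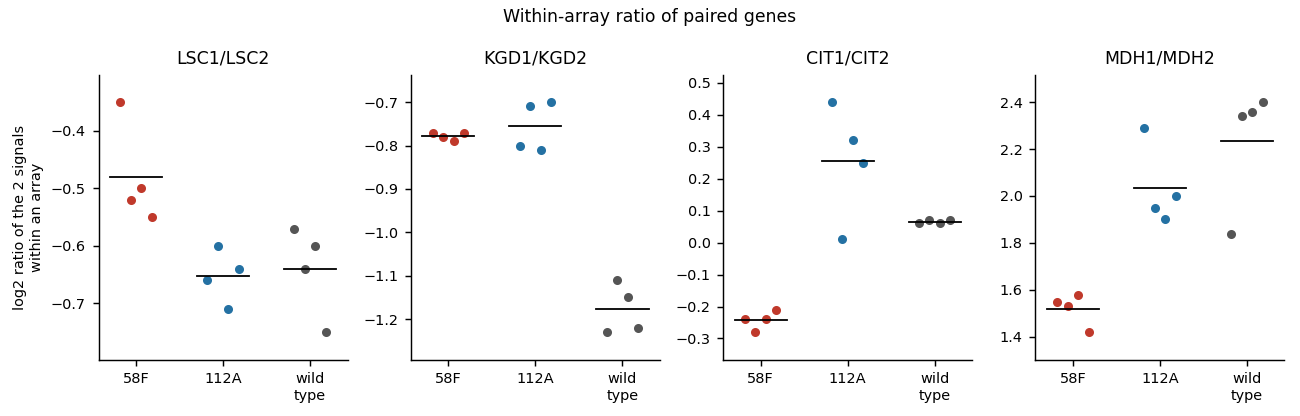
The log2 ratio of 2 signals within an array (vertical axis) is plotted on every array of 58F, 112A and wild type for 4 pairs of genes, with a bar at the group mean. KGD1/KGD2 sets both intrabody groups (-0.78 and -0.76) apart from wild type (-1.18), whereas the other pairs set 58F apart from 112A and wild type.

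The genes around the cycle were followed through lists chosen by function, whose counts are to be read beside the shares of all genes. Between 58F and 112A, 18.5% of all genes were called lower and 13.7% higher. The shares were 33.0% and 28.7% between 58F and wild type, and 25.6% and 22.7% between 112A and wild type. Both genes of the glyoxylate route were lower in 58F. The malate synthase gene MLS1 was 4.49-fold lower in 58F relative to wild type (adjusted p = 1.86e-06) and 1.94-fold lower than in 112A (adjusted p = 0.00262), and the isocitrate lyase gene ICL1 2.72-fold and 1.74-fold lower (adjusted p = 2.05e-05 and 0.00459). The pyruvate carboxylase gene PYC1 was lower relative to wild type in both intrabody groups, 1.62-fold in 58F and 1.5-fold in 112A, with a change of -0.11 between the intrabody groups that was not called. Of this list of 4 genes, 2 were lower in 58F against 112A, 4 were lower in 58F than in wild type and 3 lower in 112A than in wild type, with none higher.

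The 10 genes listed as partners of pyruvate and 2-oxoglutarate dehydrogenase encode subunits and regulators of these enzymes. Of them, 5 were lower and 1 higher in 58F than in 112A, and 7 lower and 1 higher in 58F than in wild type. In 112A, 5 were lower and 1 higher than in wild type. LPD1, the lipoamide dehydrogenase that serves both complexes, was 1.43-fold lower in 58F relative to wild type (-0.51, adjusted p = 6.58e-05) and 1.17-fold lower than in 112A (-0.23, adjusted p = 0.0266). KGD4, a subunit of 2-oxoglutarate dehydrogenase, changed by -0.45 and -0.22 in the same comparisons and was called in both. The pyruvate dehydrogenase E1 alpha gene PDA1 changed by -0.42 and -0.18, again called in both.

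The 12 isoenzymes of cycle steps had no common direction. Between 58F and 112A, 1 was lower and 3 were higher, and between 58F and wild type 5 were lower and 2 higher, as between 112A and wild type. The cytosolic NADP-dependent isocitrate dehydrogenase gene IDP2 was 2.67-fold lower in 58F relative to wild type (adjusted p = 7.07e-06) and 1.63-fold lower than in 112A (adjusted p = 0.00386). FRD1, a soluble fumarate reductase, rose in both intrabody groups against wild type (0.79, adjusted p = 1.71e-06, in 58F and 0.61, adjusted p = 3.83e-05, in 112A). SHH4, a relative of the SDH4 membrane anchor, was higher in 58F than 112A (0.47, adjusted p = 0.00173) and lower in 112A relative to wild type (-0.58, adjusted p = 0.000211).

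Among 10 mitochondrial carriers of cycle intermediates and pyruvate, 3 were lower and 2 higher in 58F than in 112A, 5 lower and 2 higher in 58F than in wild type, and 7 lower and 1 higher in 112A than in wild type. The succinate-fumarate carrier SFC1 was 3.47-fold lower in 58F relative to wild type (adjusted p = 4.29e-06) and 1.96-fold lower than in 112A (adjusted p = 0.00167). The oxaloacetate carrier OAC1 was 3.16-fold and 1.46-fold lower (adjusted p = 3.64e-08 and 0.000327). MPC1, a subunit of the pyruvate carrier, was higher in 58F than 112A (0.27, adjusted p = 0.00559) and than in wild type (0.21, adjusted p = 0.00931).

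Of 9 Hap and retrograde regulators, 2 were lower in 58F than in 112A, 5 lower in 58F than in wild type and 4 lower in 112A than in wild type, with none higher. HAP4, the activating subunit of the Hap complex, was 1.41-fold lower in 58F than in 112A (-0.49, adjusted p = 0.000167), 1.84-fold lower in 58F relative to wild type (-0.88, adjusted p = 3.06e-07) and 1.31-fold lower in 112A relative to wild type (-0.39, adjusted p = 0.000209). HAP3, a DNA-binding subunit, changed by -0.40, -1.17 and -0.78 and was called in each. The DNA-binding subunit HAP2 was called in none of the comparisons, and HAP5 was called lower in both intrabody groups against wild type by -0.17 and -0.22.

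The respiratory chain and ATP synthase list gave 31 of 32 genes lower in 58F than in 112A (median -0.67), 31 of 32 lower in 58F than in wild type (median -0.88) and 17 of 32 lower in 112A than in wild type (median -0.26), with none higher. Examples are the cytochrome c gene CYC1, at -1.41, -1.97 and -0.56, and the cytochrome oxidase subunit COX8, at -0.90, -1.27 and -0.38 in these comparisons, all called. Of 17 glycolytic genes, 4 were higher in 58F than 112A (median 0.29), 12 were higher and 1 lower in 58F than in wild type (median 0.50), and 4 were higher and 1 lower in 112A than in wild type (median 0.20). Of all genes, 13.7%, 28.7% and 22.7% were called higher in these comparisons. The count in 112A against wild type, 4 of 17, thus lay near the share of all genes. The phosphoglucose isomerase gene PGI1 rose by 0.43, 0.81 and 0.38, all called. The count of glycolytic genes higher in 58F than in 112A was 10 without 112A replicate 2, where 808 of the 5827 genes were called higher, and 10, with 1 lower, without wild type replicate 1, where 947 were. For this list 112A replicate 2 had the highest deviation of its group (0.22). Leaving it out therefore widens the gap to 58F by construction.

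**Figure D5:**
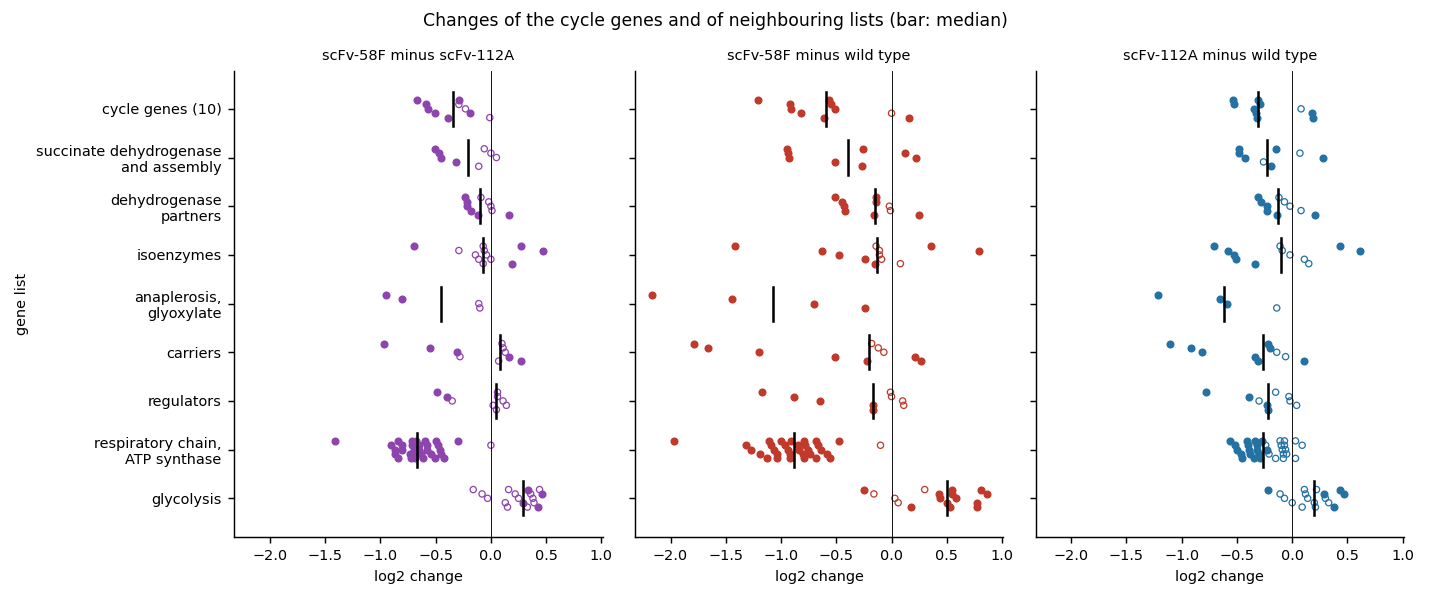
The log2 change of every gene (horizontal axis) is plotted by list (vertical axis) for 58F minus 112A, 58F minus wild type and 112A minus wild type, filled where called and open where not, with a bar at the median. The cycle genes have medians of -0.34, -0.59 and -0.31, between those of the respiratory chain (-0.67, -0.88 and -0.26) and glycolysis (0.29, 0.50 and 0.20) except in the last comparison.

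The mean profile of the 9 cycle genes with complete values, each centred on its own mean over the 12 arrays, was set beside 5398 other genes above background on all arrays by the root mean square of the log2 differences. The nearest was SDH4, the succinate dehydrogenase anchor, at 0.064, followed by LPD1, the lipoamide dehydrogenase, at 0.065. Then came IBA57, which acts in the maturation of mitochondrial iron-sulfur proteins, at 0.071, MEF2, a mitochondrial translation factor, at 0.071, and MSK1, the mitochondrial lysyl-tRNA synthetase, at 0.072. The cycle genes themselves lay at 0.077 for IDH1, 0.085 for CIT1, 0.099 for MDH1, 0.122 for KGD1, 0.14 for KGD2 and 0.161 for ACO1. LSC2 at 0.26, FUM1 at 0.272 and LSC1 at 0.319 were the farthest, FUM1 with wider steps between the groups than the mean profile and the LSC genes with small ones. These distances describe 12 arrays in 3 groups and carry no test.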

How the data were processed

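Total RNA of 12 samples was hybridised to single-colour Agilent arrays. Per the file headers, the deposited processed signal is an intensity made by Agilent Feature Extraction 10.7.3.1, with background subtracted and spatial trend removed within the array and no scaling between arrays; the median intensities of spot and background in the same files are untreated. A further deposited file gives log2 values of 5297 probes, as the authors processed them; its scaling method is not given in the sources used here. Set against the scanner values the file follows the log2 signal in the same direction with an offset per array of 12.485 to 12.529, and its column medians are 11.27 to 11.37. It was used as an alternative.

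Outlier-flagged spots were dropped, the 2 spots of a probe averaged on the log2 scale, and each array's 75th percentile of the probe values subtracted. The probe with the highest mean stood for a gene. Of 6224 genes, 5827 were well above background on at least 4 of 12 arrays and were tested with limma 3.58.1 (lmFit and eBayes, 2-sided) in R 4.3.3, with 3 group means over all 12 arrays. P-values were adjusted by the Benjamini-Hochberg method over all genes, and calls were made below an adjusted p of 0.05. Tested on simulated data for 58F against wild type, the fit called 82% and 86% of genes changed by 0.5 down and up (log2, 50 genes each) and 0.1% of 5627 unchanged genes. The simulation held independent noise on each array and no slide effect, and it changed far fewer genes than were called here. Its share of unchanged genes called therefore does not carry over to these data. The number of arrays limits the precision.

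The cycle genes, the lists and the tests were chosen with earlier results of these data known. The text names all cycle genes, part of the genes that a rule of up to 4 called genes with the largest changes per comparison and list gives (the succinate dehydrogenase, isoenzyme and regulator genes beyond these were named for completeness of their list), the genes of the pairs, and the 5 nearest profiles. Alternatives were normexp background (offset 50, on median signals), quantile and cyclic loess scaling, filters on dim probes, the mean of a gene's probes, the deposited log2 table, a replicate block, fits of 2 groups, each array left out, and outlier spots kept. Promoter and protein sequences were not analysed here. The files' genome build differs from that of the gene names used, so no coordinates are given.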

Additional observations from a re-analysis of the deposited data

Results flagged for a closer look

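In groups of 4 arrays, 35 of them over the cycle genes and the comparison genes of the pairs, 2 held an array whose gap to the nearest other array exceeded Dixon's 95% limit as a share of the group's range; chance alone gives about 1 in 20. CIT1 stood at 4.16 on 112A replicate 2 and at 4.51 to 4.55 on the other 112A arrays, a gap of 0.896 of the range. LSC1 stood at 1.63 on 112A replicate 3 and at 1.46 to 1.48 on the others, a gap of 0.935 of the range.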

How the results depend on the processing

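Over the 20 to 22 alternatives that gave a value, 19 of the 30 changes of cycle genes kept their direction and call throughout, 6 lost a call in some, 3 gained one and 2, neither of them called, turned sign. LSC1 between 58F and 112A became 0.02 with quantile scaling, 0.03 with cyclic loess scaling, and ran from -0.03 to 0.03 without single arrays, above 0 without 58F replicate 2 (0.01) or 112A replicate 3. LSC2 between 58F and wild type became -0.02 with normexp background, and -0.04 and -0.01 without 58F replicate 4 and wild type replicate 3. The ratio of IDH1 to IDH2, with 1 array in 58F, turned to -0.22 (normexp) and -0.09 (deposited table and outlier spots kept) against 112A and to -0.10 and -0.01 against wild type; between 112A and wild type it ran from -0.00 (without wild type replicate 1) to 0.09 (without 112A replicate 2) without single arrays, and was called with normexp background (0.12, adjusted p = 0.0464), the deposited table and outlier spots kept (0.08, adjusted p = 0.0476 each, exact permutation). LSC1 over LSC2 between 112A and wild type became 0.01 with quantile scaling and ran from -0.05 (without wild type replicate 4) to 0.01 without single arrays, and KGD1 over KGD2 between 58F and 112A became 0.07 with normexp background. Quantile scaling left 0 of the 8 pair calls, since 6 and not 8 tests reached the smallest exact permutation p of 0.0286 and the adjusted value rose to 0.0619. Without single arrays 0 to 9 pair tests were called, with 9 without 112A replicate 2, where CIT1 over CIT2 between 112A and wild type was added (adjusted p = 0.0413, exact permutation). The causes were not tested.

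Lost calls were, beside LSC2 between 58F and 112A, CIT1 and KGD2 between 112A and wild type with quantile scaling (adjusted p = 0.0608 and 0.129) and LSC1 and LSC2 against wild type with normexp background or without single arrays (adjusted p up to 0.211). CIT1 between 58F and 112A gained a call with the filter on all arrays, the deposited table, and without 112A replicate 2 or wild type replicate 1 (adjusted p = 0.00191 to 0.0476). IDH2 gained one there with outlier spots kept and with the deposited table (adjusted p = 0.0149 and 0.00928, limma). Without wild type replicate 1 its change was -0.29, on 1 array of 58F. KGD1 between 112A and wild type gained a call without 112A replicate 2 (adjusted p = 0.0319, limma). Without single arrays, 6 to 9 cycle genes were called between 58F and 112A, 8 to 9 between 58F and wild type and 8 to 10 between 112A and wild type, beside 1405 to 2260, 3282 to 3688 and 2386 to 2882 of all genes. No value of IDH2 in 58F could be had without 58F replicate 3.

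Replicate numbers are positions on the slides. Samples of the same number correlated in their deviations with r of -0.174 to 0.165 between 58F and 112A, 0.08 to 0.194 between 58F and wild type and -0.058 to 0.112 between 112A and wild type, and 3, 5 and 1 of 8 samples correlated best with their own number, so not every pair exceeded 0.1 and the numbers were not treated as pairs, although the share of spots above background was lowest on replicate 3 of each group (89.7%, 87% and 89.7%). With the replicate block, 6, 9 and 9 cycle genes were called in these comparisons, and 1714, 3501 and 2646 of all genes; the paired test of a ratio cannot go below p = 0.125 (exact permutation).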
